A study of Mus musculus with 9 samples.

Results

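The 10 genes examined here encode the classical MHC class II molecules and the proteins that load them with peptide, and the coactivator of their transcription: H2-Aa, H2-Ab1 and H2-Eb1, Cd74, Ciita, H2-DMa, H2-DMb1 and H2-DMb2, and H2-Oa and H2-Ob. They were chosen by their function, by symbol, with earlier results of these data known. All 10 were found among the 51912 genes of the count table. They were followed in bulk RNA-seq of pre-cDCs, the precursors that leave the BM and give rise to cDC1s and cDC2s in tissues. Cells came from irradiated mice reconstituted with mixed BM. WT donors were BL/6 and CD45.1, whereas the donors that lacked DNGR-1 (DNGR-1 KO) were Clec9aCre/Cre and CD45.2, so that both genotypes developed side by side in the same kind of host. BM gave 3 samples of each genotype, and spleen gave 1 WT sample and 2 of DNGR-1 KO cells. Each sample was a pool from a pair of mice, and the labels used here give no age. In the DNGR-1 KO cells a Cre cassette occupies both Clec9a alleles, and the donors also differ at the CD45 locus, so congenic background and genotype cannot be told apart. Cells were depleted of lineage-positive cells and sorted, and surface MHC class II was one of the parameters of the gate in both tissues. A class II transcript level in these samples is therefore a level within cells already selected in part by their surface class II.

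MHC class II molecules are pairs of an alpha and a beta chain that carry peptides from endosomes to the cell surface, where CD4+ T cells read them. The invariant chain, Cd74, guards the groove of new molecules, H2-DM exchanges its remnant for peptide, and H2-O restrains H2-DM. Transcription of these genes depends on Ciita, a coactivator that docks onto the RFX complex, NF-Y and CREB at the X and Y boxes of their promoters. cDCs are the myeloid cells best known for this pathway, and their precursors carry less class II than the mature cells.

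Short promoter stretches are shown for 4 members in which letters of X and Y boxes were found together. RefSeq entries (GRCm38.p6) were matched for 7 of the 10 members, and none was matched for H2-Ab1, Cd74 and Ciita. Each sequence runs 5′ to 3′ from 120 to 41 bases before the RefSeq start site, on the strand of the gene. The stretches are chr17:34287864-34287943 on the minus strand for H2-Aa, and on the plus strand chr17:34305747-34305826 for H2-Eb1, chr17:34145129-34145208 for H2-DMb2 and chr17:34238785-34238864 for H2-Ob. No exon of GENCODE M21 lies in them, and that of H2-DMb2 lies in an intron of its own longer gene model. Capitals mark GCAAC, the longer string ATGATGC, the string TGACGTC, all letters found in X boxes, and also GATTGG, which read on the other strand holds the CCAAT letters of a Y box.
H2-Aa: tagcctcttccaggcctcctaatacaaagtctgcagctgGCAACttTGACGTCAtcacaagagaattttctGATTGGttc
H2-Eb1: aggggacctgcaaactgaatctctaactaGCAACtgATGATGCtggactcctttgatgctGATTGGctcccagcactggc
H2-DMb2: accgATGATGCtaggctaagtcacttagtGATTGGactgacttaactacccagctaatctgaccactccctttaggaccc
H2-Ob: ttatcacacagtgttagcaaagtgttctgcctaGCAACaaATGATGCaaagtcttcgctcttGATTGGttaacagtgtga
The motifs were picked after these sequences had been read, and a match is only a match of letters. In all 250-base windows before start sites, searched on both strands, GATTGG was present in 14.6%, GCAAC in 29.9%, TGACGTC in 2.78% and ATGATGC in 1.99% of 32851. In H2-Aa the TGACGTC matches on the 2 strands overlap each other and form the capital run. ATGATGC followed by GATTGG within 30 bases was rare, at 13 of 32851 windows or 0.0396%. The windows of 4 members held this pair, H2-Eb1 with 17 bases between the motifs, H2-DMb1 and H2-DMb2 with 18, and H2-Ob with 15. H2-Oa held GCAAC and GATTGG in the same order, whereas of the 2 entries for H2-DMa one held GATTGG alone, 199 bases before the start, and the other GCAAC alone on the opposite strand. In the other 6 members GATTGG on the strand of the gene began between 44 and 91 bases before the start.

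Apart from Cd74 on chromosome 18 and Ciita on chromosome 16 (10480059-10528418, GRCm38), the members lie on chromosome 17, in the MHC, from H2-Oa (start 34092340) to H2-Eb1 (end 34316674). Some annotated exons are shared with other genes: 360 bases of H2-DMa with Brd2, 329 of Ciita with Dexi and 321 of H2-Oa with an antisense gene, all on the opposite strand, and whether the counting used strand is not given in the sources used here. H2-DMb1 and H2-DMb2 are close paralogs. Of the 50-base stretches of their transcripts, 369 were identical, or 22.7% of those of H2-DMb1 and 21.2% of those of H2-DMb2. Their estimated counts were fractional in 9 of 9 samples while their sum was whole (to within 0.01) in 9 of 9, so reads were divided between them and the split is uncertain.

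Library depth was 17103806 to 23722298 counts per sample, and 3 counts correspond to 0.127 to 0.179 CPM (read counts scaled to equal library size by TMM over the 9 samples). Clec9a, the targeted gene, had 905 to 1766 counts in WT BM and 2459 in WT spleen, against 1 in each DNGR-1 KO BM sample and 0 in both from spleen. The cDC lineage genes (7, among them Flt3, Zbtb46 and Cst3) were above 3 counts in all 9 samples. Their summed level, mostly Cst3, was 3984 to 8633 CPM in BM and 4213 to 12213 CPM in spleen. Libraries stood apart within their groups. Both BM samples numbered 1 were high in a list of 6 neutrophil genes, at 545 and 577 CPM in sum against 45.4 to 170 CPM in the other 4 BM samples. DNGR-1 KO spleen sample 1 was high in the sum of a list of 7 cDC1 genes. It was at 1078 CPM against 406 CPM in the WT spleen sample and 256 CPM in DNGR-1 KO sample 2. That list holds Clec9a itself, at 146 CPM in the WT spleen sample and 0 in both DNGR-1 KO spleen samples. The BM and tissue tests of the members are therefore also given without these samples, and the other results are over all samples of their groups. In bulk samples, fewer cells that express a gene and less RNA per cell cannot be told apart.

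Transcripts of the pathway were abundant in both tissues. Summed over the 10 genes they made up 0.265% to 1.12% of the scaled total in the 6 BM samples and 1.20%, 1.86% and 4.69% in the 3 spleen samples. Levels between genes were compared as CPM per kb of exon length. In BM, Cd74 came first with a median of 1642 CPM per kb (range 447 to 2562, n = 6), followed by the beta chain H2-Ab1 with 579 (132 to 919). H2-DMb1, H2-Aa, H2-DMa and H2-Eb1 came next, with medians from 344 down to 250 CPM per kb and overlapping ranges. The H2-O chain H2-Oa, with 25.5 CPM per kb, and H2-DMb2, with 22.4, formed a lower step. H2-Ob, with 6.57, and Ciita, with 5.50 CPM per kb, came last. Of the 9 neighbouring pairs in this order only H2-Eb1 over H2-Oa and H2-DMb2 over H2-Ob had ranges that did not meet.

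The order in spleen was nearly the same, except that H2-Eb1 stood above H2-Aa and both major H2-DM chains stood below the classical chains. Cd74 had a median of 4863 CPM per kb (3245 to 11890, n = 3), H2-Ab1 1311, H2-Eb1 898 and H2-Aa 742. The ranges of neighbours were apart only for H2-DMb1 (361 to 663 CPM per kb) over H2-DMa (188 to 344). Ciita was again the lowest, at 7.49 CPM per kb (5.21 to 39.8).

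**Figure D1:**
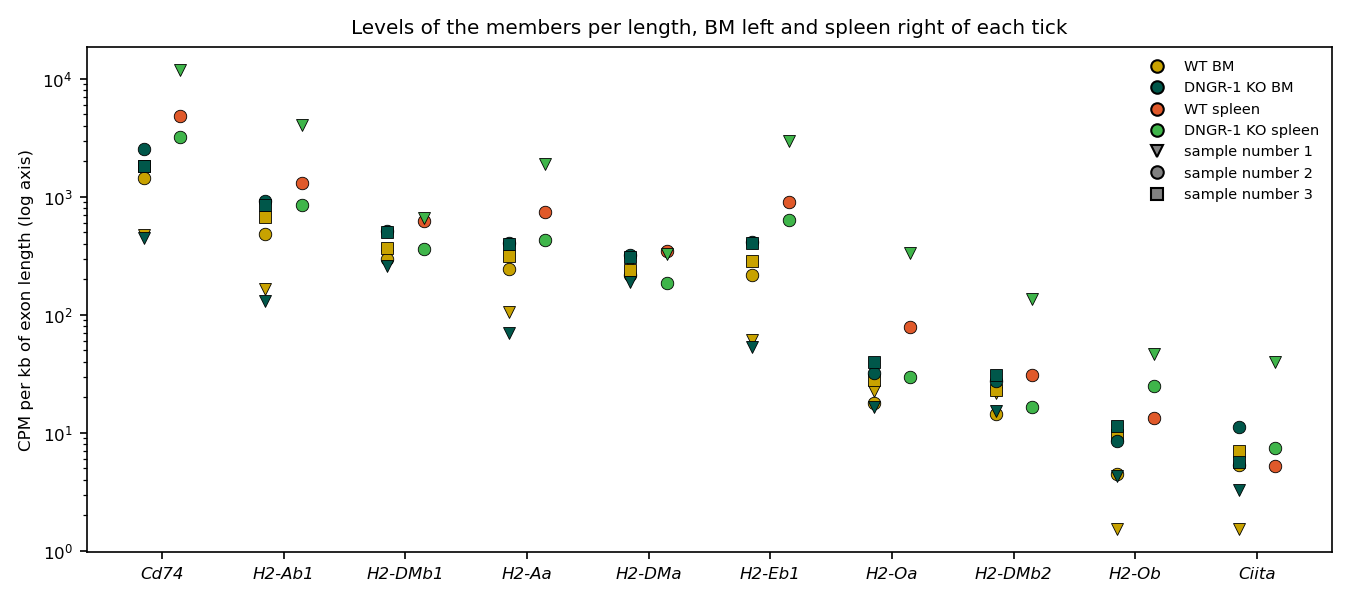
Levels of the 10 genes per kb of exon length, on a log axis, ordered by their BM medians. Each point is 1 sample, BM to the left and spleen to the right of each tick. By medians Cd74 is highest, and H2-Ob and Ciita are lowest, in both tissues. DNGR-1 KO spleen sample 1 is the highest spleen point for every gene except H2-DMa.

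The first question was whether pre-cDCs without DNGR-1 differed from WT pre-cDCs in this pathway within BM. Among the classical chains, H2-Ab1 was at 429, 1238 and 1738 CPM in WT and 338, 2360 and 2210 CPM in DNGR-1 KO samples 1, 2 and 3. Its partner H2-Aa was at 403, 933 and 1193 CPM in WT and 267, 1549 and 1529 CPM in DNGR-1 KO samples. In both genotypes sample 1 was far below the others, and the DNGR-1 KO samples spanned the WT range. H2-Eb1, a beta chain whose alpha partner is not made in C57BL/6 mice, was at 120, 420 and 551 CPM in WT and 104, 799 and 789 CPM in DNGR-1 KO. H2-Ea-ps, the broken alpha chain gene, had 0 counts in all 9 samples, and H2-Ea was not analysed here.

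Cd74 was at 802, 2443 and 3072 CPM in WT BM and 750, 4301 and 3086 CPM in DNGR-1 KO BM. Ciita was at 14.7, 50.6 and 67.0 CPM in WT and 31.4, 106 and 54.2 CPM in DNGR-1 KO. The invariant chain and the coactivator thus overlapped between genotypes as the class II chains did.

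The H2-DM genes varied less. H2-DMa was at 955, 754 and 821 CPM in WT and 650, 1104 and 1062 CPM in DNGR-1 KO. H2-DMb1 was at 531, 501 and 625 CPM in WT and 436, 858 and 841 CPM in DNGR-1 KO. In WT, sample 1 was the highest for H2-DMa and between the other 2 for H2-DMb1, unlike for the classical chains. H2-DMb2 was at 38.2, 25.1 and 40.0 CPM in WT and 26.7, 47.7 and 54.1 CPM in DNGR-1 KO.

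The H2-O genes, better known from B cells, were low but well above 3 counts in all 6 BM samples. H2-Oa was at 31.8, 25.2 and 39.8 CPM in WT and 23.5, 45.6 and 56.1 CPM in DNGR-1 KO. H2-Ob was at 8.18, 24.3 and 52.1 CPM in WT and 23.1, 46.4 and 62.1 CPM in DNGR-1 KO. H2-Ob was the 1 member that was higher in the DNGR-1 KO sample for all 3 sample numbers, yet its groups overlapped like those of the other members.

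**Figure D2:**
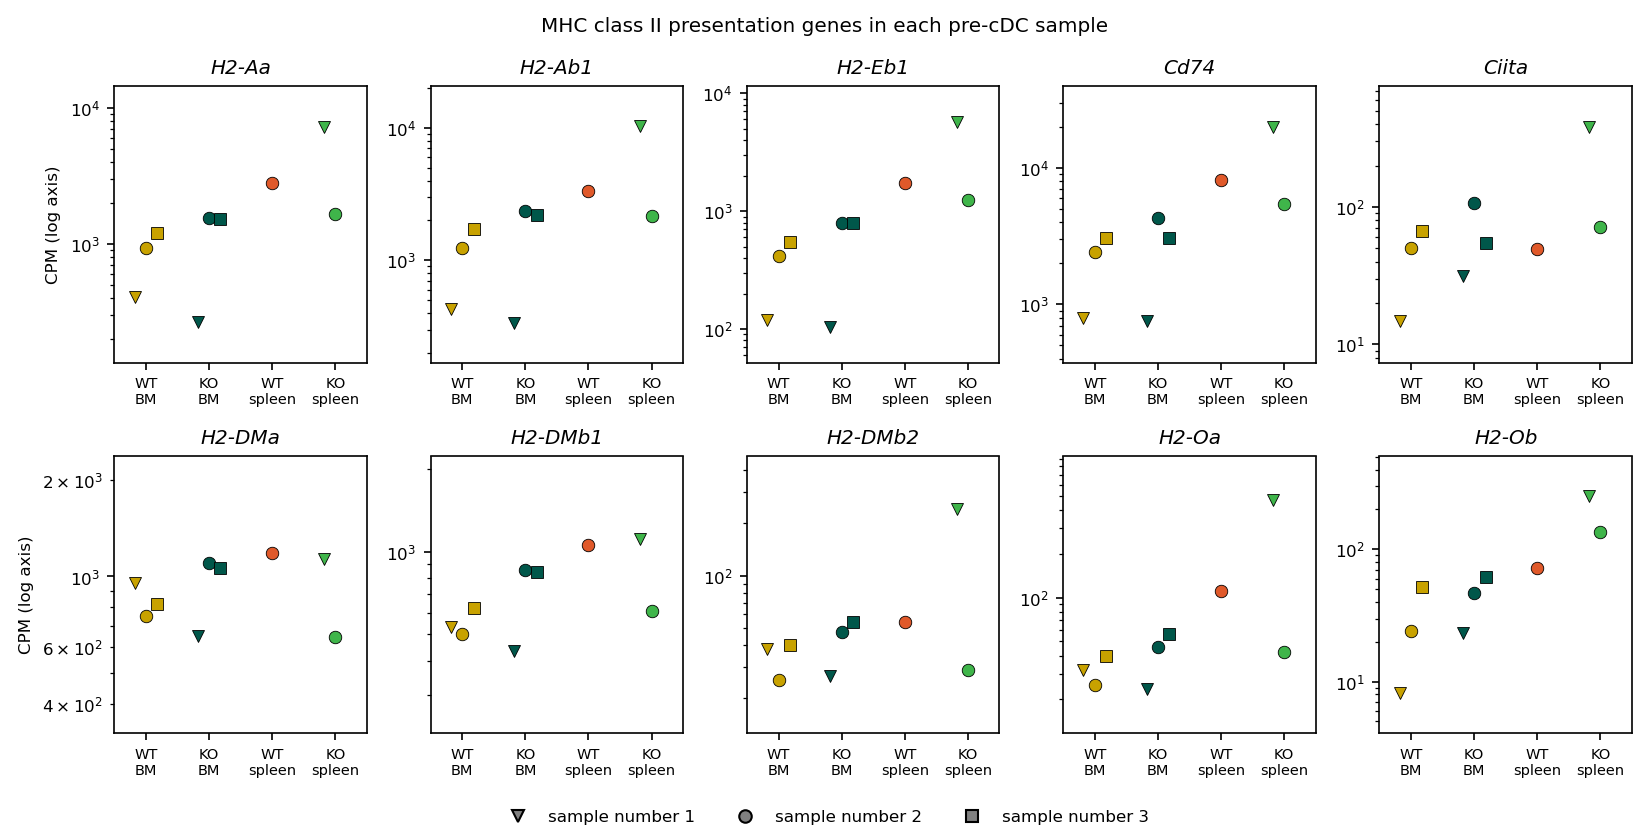
CPM of each of the 10 genes in each sample, on log axes that differ between panels. Each point is 1 sample, colors mark the 4 groups and shapes mark the sample number. In both genotypes BM sample 1 is the lowest for H2-Aa, H2-Ab1, H2-Eb1, Cd74, Ciita and H2-Ob, and DNGR-1 KO spleen sample 1 lies above the other spleen samples for all members but H2-DMa.

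In the test across all genes (edgeR's quasi-likelihood test with Benjamini-Hochberg adjustment), none of the 10 members differed between genotypes in BM. Of all 13016 genes tested, 4 passed an adjusted p of 0.05 (0.0307%), and 498 (3.83%) an unadjusted one. Samples of the 2 genotypes did not overlap for 4.96% of genes in the direction of DNGR-1 KO and for 4.59% in the other, and for 0 members. Of the members 0 passed either threshold, and 0 were called by DESeq2, limma-voom or limma on the VST values. The log2 fold changes, DNGR-1 KO over WT, were positive for 10 of 10 members, from 0.15 ± 0.25 (SE) for H2-DMa to 0.63 ± 0.58 for H2-Ob and 0.63 ± 0.69 for H2-Eb1. Their median was 0.38, beside -0.0045 over all genes tested. Most marker lists also had positive medians in BM. These were 0.64 for monocyte genes (6 of 6 positive), 0.56 for cDC2 genes (5 of 6) and 0.44 for cDC lineage genes (6 of 7). They were 0.40 for cDC1 (6 of 7), 0.27 for mature DC (3 of 3) and 0.80 for macrophage genes (2 of 3). B cell genes had 0.50 (4 of 4) and NK cell genes 0.18 (1 of 1). Medians were slightly negative for pDC genes at -0.071 (2 of 5), neutrophil genes at -0.058 (2 of 6) and T cell genes at -0.027 (1 of 2). The adjusted p-values of edgeR lay between 0.861 and 0.921. The standard errors of the classical chains, Cd74 and Ciita, 0.55 to 0.69, were larger than their log2 fold changes. Without both samples numbered 1 the median was 0.56 and again 0 members were called. Under the other settings tried it ranged from 0.21, without DNGR-1 KO sample 2, to 0.83, without DNGR-1 KO sample 1. The members move together from sample to sample, so 10 positive signs are not 10 separate observations.

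The spread among the BM samples of 1 genotype was wide. For 6 members (H2-Aa, H2-Ab1, H2-Eb1, Cd74, Ciita and H2-Ob) sample 1 was the lowest in both genotypes, which held for 1585 of the 13016 genes tested (12.2%). The mean of the other 2 samples of these genes was higher than sample 1 by 2.64 to 4.67 times among WT cells and by 2.35 to 7.63 times among DNGR-1 KO cells. For H2-DMa, H2-DMb1, H2-DMb2 and H2-Oa the same ratio in WT was only 0.825, 1.06, 0.854 and 1.02. In DNGR-1 KO these 4 were lower in sample 1 as well, by 1.67 to 2.16 times. The same samples had the highest neutrophil sums of the 6, as given above, and the lowest cDC1 sums, at 103 and 58.8 CPM against 157 to 253 CPM. The part of either in the class II levels was not tested.

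The second question was how the pathway differed between spleen and BM pre-cDCs. The fit took all 9 samples with genotype as a covariate, and its genes had a median log2 fold change of -0.21. Of 15813 genes tested 2479 (15.7%) were called, of which 945 (5.98% of those tested) rose in spleen and 1534 (9.70%) fell. Among the members 4 rose, 0 fell and 7 passed an unadjusted p of 0.05, which 32.6% of all genes did, and their median log2 fold change was 1.83. The members that rose were H2-Eb1, Cd74, H2-Oa and H2-Ob.

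H2-Eb1 was at 104, 486 and 799 CPM (lowest, median and highest) in BM, and at 1745 CPM in WT spleen and 5752 and 1246 CPM in DNGR-1 KO spleen samples 1 and 2. Its log2 fold change was 2.49 ± 0.68 (SE), with an adjusted p of 0.0358 in edgeR's test, and the tissues did not overlap. Cd74 was at 750, 2757 and 4301 CPM in BM, at 8165 CPM in WT spleen and at 19963 and 5449 CPM in DNGR-1 KO spleen. It too was apart between tissues, with a log2 fold change of 2.13 ± 0.58 and an adjusted p of 0.0365 in edgeR's test.

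H2-Ob was at 8.18, 35.3 and 62.1 CPM in BM, at 72.5 CPM in WT spleen and at 251 and 135 CPM in DNGR-1 KO spleen. Its log2 fold change was 1.86 ± 0.53 (edgeR, adjusted p = 0.0421), again without overlap. H2-Oa was at 23.5, 35.8 and 56.1 CPM in BM, at 110 CPM in WT spleen and at 468 and 42.1 CPM in DNGR-1 KO spleen. Its log2 fold change was 2.31 ± 0.60 (edgeR, adjusted p = 0.0288), although DNGR-1 KO spleen sample 2 lay within the BM range.

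The alpha and beta chains of I-A missed the threshold. H2-Aa had a log2 fold change of 1.90 ± 0.59 (edgeR, adjusted p = 0.0579), with spleen at 2817, 7227 and 1644 CPM (WT, then DNGR-1 KO samples 1 and 2) and a BM maximum of 1549 CPM. H2-Ab1 was at 3366, 10359 and 2173 CPM in spleen against a BM maximum of 2360 CPM, and its value was 1.80 ± 0.65 (edgeR, adjusted p = 0.0915). Samples of the 2 tissues were apart in 4 members, H2-Aa, H2-Eb1, Cd74 and H2-Ob, all higher in spleen, as in 7.78% of genes tested.

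Ciita, at 49.7 CPM in WT spleen and 379 and 71.4 CPM in DNGR-1 KO spleen, overlapped with BM, and its log2 fold change was 1.27 ± 0.68 (edgeR, adjusted p = 0.225). The same was true of H2-DMb2, at 54.1, 240 and 28.9 CPM in the same order, with 1.3 ± 0.56 (edgeR, adjusted p = 0.144). The main H2-DM chains had the smallest values. H2-DMb1 was at 1060, 1114 and 607 CPM, with 0.54 ± 0.28 (edgeR, adjusted p = 0.206). H2-DMa was at 1188, 1132 and 647 CPM, with 0.15 ± 0.25 (edgeR, adjusted p = 0.719).

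These calls rested on few samples. Without DNGR-1 KO spleen sample 1, 0 members were called in edgeR's test, and the log2 fold changes of H2-Eb1, Cd74, H2-Oa and H2-Ob were 1.76, 1.52, 1.03 and 1.5, with adjusted p-values of 0.114, 0.114, 0.142 and 0.0975. Likewise 0 were called without WT BM sample 2, without DNGR-1 KO BM sample 3, without the WT spleen sample, and without both BM samples numbered 1, where the median of the members was 1.41. With WT BM sample 1 left out, or else sample 1 or 2 of DNGR-1 KO BM, 1 member was called, and without DNGR-1 KO spleen sample 2, 7 were. DNGR-1 KO samples alone gave a median of 1.98 and called 1 member, H2-Ob. With the sample number as a replicate block H2-Ob was again the 1 member called, at a log2 fold change of 2.45, while H2-Eb1, Cd74 and H2-Oa were at 3.11, 2.55 and 2.37 with adjusted p-values of 0.0750, 0.0845 and 0.0833 in edgeR's test. The log2 fold changes of the 4 members that rose were positive under all 21 alternative settings, among which each was called in 9 (H2-Oa) to 14 (H2-Ob).

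**Figure D3:**
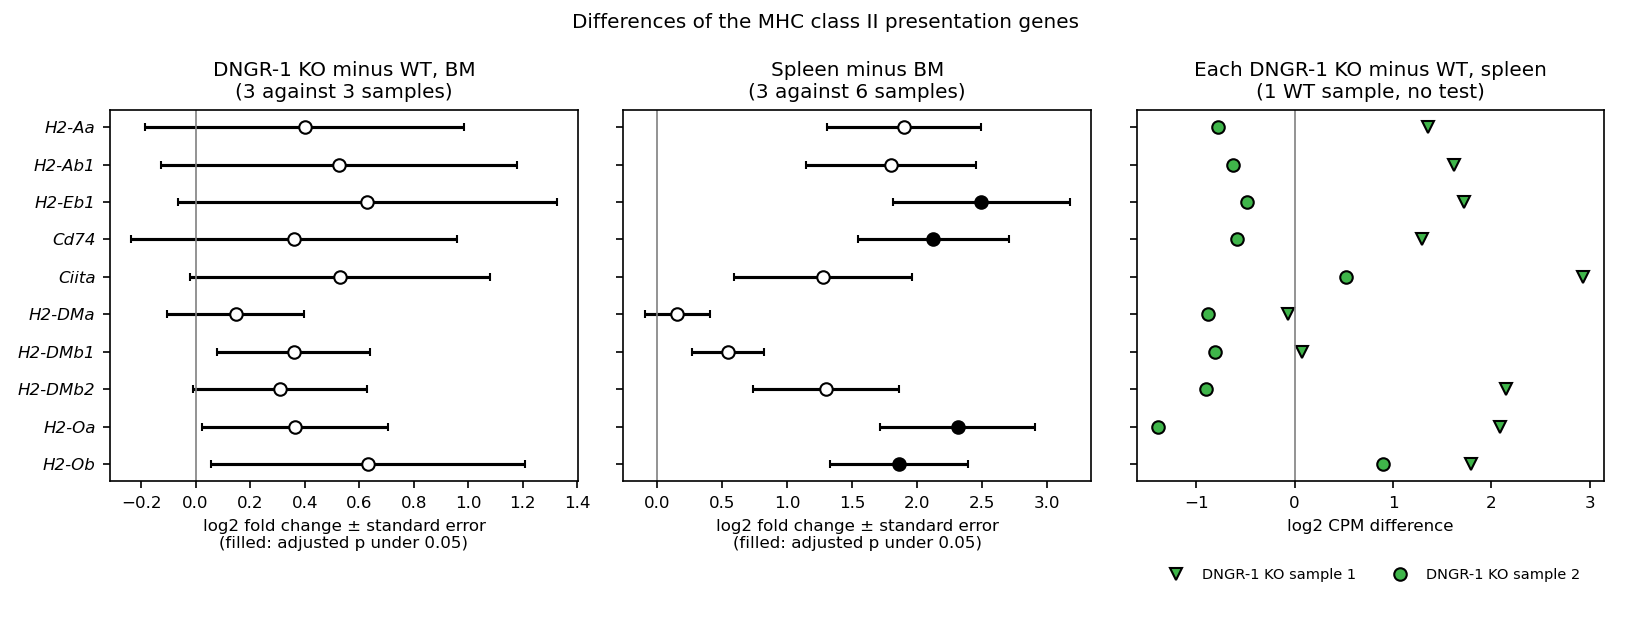
Log2 differences of the 10 genes. The left and middle panels show log2 fold changes with bars of 1 standard error for DNGR-1 KO over WT in BM and for spleen over BM, filled where the adjusted p was under 0.05, which was the case for 0 and 4 genes. The right panel shows each DNGR-1 KO spleen sample minus the single WT spleen sample, with sample 1 above 0 for 9 genes and sample 2 above 0 for Ciita and H2-Ob.

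Genes of other cells also differed between tissues. Markers of T cells (7 genes) summed to 2.85 to 11.1 CPM in BM and to 860, 1128 and 3564 CPM in WT spleen and DNGR-1 KO spleen samples 1 and 2, with all 7 called higher in edgeR's test. NK cell genes (7) summed to 14.4 to 42.3 and 280 to 1507 CPM, and macrophage genes (8) to 5.07 to 17.4 and 164 to 565 CPM. Of these, 6 NK cell and 4 macrophage genes were called higher. All 3 lists were highest in DNGR-1 KO spleen sample 2, the spleen sample with the lowest levels of 8 members. B cell genes (12) summed to 899 to 1424 CPM in BM and 718 to 1005 CPM in spleen, mostly Ighm. Genes of mature DCs (7) summed to 23.9 to 51.6 CPM in BM and 148 to 453 CPM in spleen. Ccr7 alone, which rose across the spleen samples as the T cell sum did, was at 82.8, 116 and 315 CPM in WT spleen and DNGR-1 KO spleen samples 1 and 2. Fscn1 was at 0, 11.3 and 1.4 CPM in the same order and was not called. Genes of cDC1s summed to 58.8 to 253 CPM in BM and 256 to 1078 CPM in spleen. Called higher in spleen were 4 genes of mature DCs (Ccr7, Cd86, Cd40 and Il12b), 2 of cDC1s and 1 of B cells. The latter, Ms4a1, had 0 to 1 counts in BM, 0 in WT spleen, and 213 and 222 in DNGR-1 KO spleen samples 1 and 2. Il12b had 0 counts in BM, 398 in WT spleen, and 0 and 477 in DNGR-1 KO spleen samples 1 and 2. Neutrophil genes summed to at most 0.338 CPM in spleen, with 5 of 6 called lower. Monocyte genes (6) summed to 1948 to 3699 CPM in BM and 2258 to 3381 CPM in spleen with 1 called higher. Sums of pDC genes (6) were 109 to 223 and 44.9 to 134 CPM with 1 called lower. For cDC2 genes (7) they were 695 to 1245 and 1196 to 2075 CPM, with 2 called higher and 1, Mgl2, lower. The 2 were S1pr1, at 37.0, 82.6 and 291 CPM in WT spleen and DNGR-1 KO spleen samples 1 and 2, and Clec4a4, with 11, 497 and 157 counts. S1pr1 thus rose across the spleen samples as the T cell sum did. Of the 7 cDC lineage genes 0 were called by edgeR and 3 passed an unadjusted p of 0.05. These were Dpp4 and Id2, higher in spleen with log2 fold changes of 1.28 and 1.61, and Zbtb46, lower with -1.18. The part of these cells in the class II levels was not tested.

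The members also shifted relative to each other, as ratios within a sample show without any scaling between libraries. These ratios were chosen after the data had been seen, and are given as descriptions. Counts of H2-Eb1 were 0.280 to 0.357 of those of H2-Ab1 in the 6 BM samples and 0.518 to 0.573 in the 3 spleen samples. The proportion of the 2 beta chains thus did not overlap between tissues, including in BM sample 1 of either genotype and in DNGR-1 KO spleen sample 1, where both were unusually low or high. H2-Ab1 to H2-Aa, by contrast, was 1.06 to 1.52 in BM and 1.19 to 1.43 in spleen. Counts of H2-Aa were 0.410 to 1.45 of those of H2-DMa in BM and 2.37 to 6.39 in spleen. H2-Oa relative to H2-DMa, per kb, was 0.0817 to 0.129 in BM and 0.160, 0.228 and 1.01 in spleen, the highest in DNGR-1 KO sample 1. H2-DMb2 made up 4.55% to 6.70% of the counts of both H2-DMb genes in 8 samples and 17.8% in DNGR-1 KO spleen sample 1.

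In spleen a single WT sample stood against 2 DNGR-1 KO samples, so the genotype difference there has no replicate check. The WT sample lay between the 2 DNGR-1 KO samples for 7 members, the exceptions being Ciita, H2-DMa and H2-Ob. Over all 13218 genes kept, both DNGR-1 KO samples were above WT for 34.9% and both below for 30.7%. Neither held for the rest. In sample 1 the log2 difference from WT had a median of 1.67 over the members and ran from -0.07 for H2-DMa to 2.93 for Ciita. In sample 2 the median was -0.70, from -1.39 for H2-Oa to 0.90 for H2-Ob. Over all 13218 genes kept for the spleen comparison the medians were 0.066 and 0.068.

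Both DNGR-1 KO samples were above WT for 2 members, Ciita and H2-Ob, as for 34.9% of genes, and both were below WT for H2-DMa, as for 30.7%. For 7 members, H2-Aa, H2-Ab1, H2-Eb1, Cd74, Ciita, H2-DMb2 and H2-Oa, sample 1 was more than 2-fold above both other spleen samples, which held for 11.9% of the 15813 genes of the tissue fit. It was 7.62 times WT for Ciita, 4.44 times for H2-DMb2, 4.24 times for H2-Oa and 2.44 to 3.30 times for the classical chains and Cd74. H2-Eb2, another class II beta gene, had 51 counts in this sample and 0 to 5 in the other 8.

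Whether the genotype difference itself differed between tissues was tested with an interaction term, in which the single WT spleen sample is assumed to vary like the other groups. Of 15813 genes 1108 (7.01%) passed the threshold, and 0 members did in edgeR's test, with 0 at an unadjusted p of 0.05, which 19.8% of all genes passed, and 0 called by DESeq2. The standard errors of the members were 0.50 to 1.49 on the log2 scale, and their adjusted p-values 0.568 or above.

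**Figure D4:**
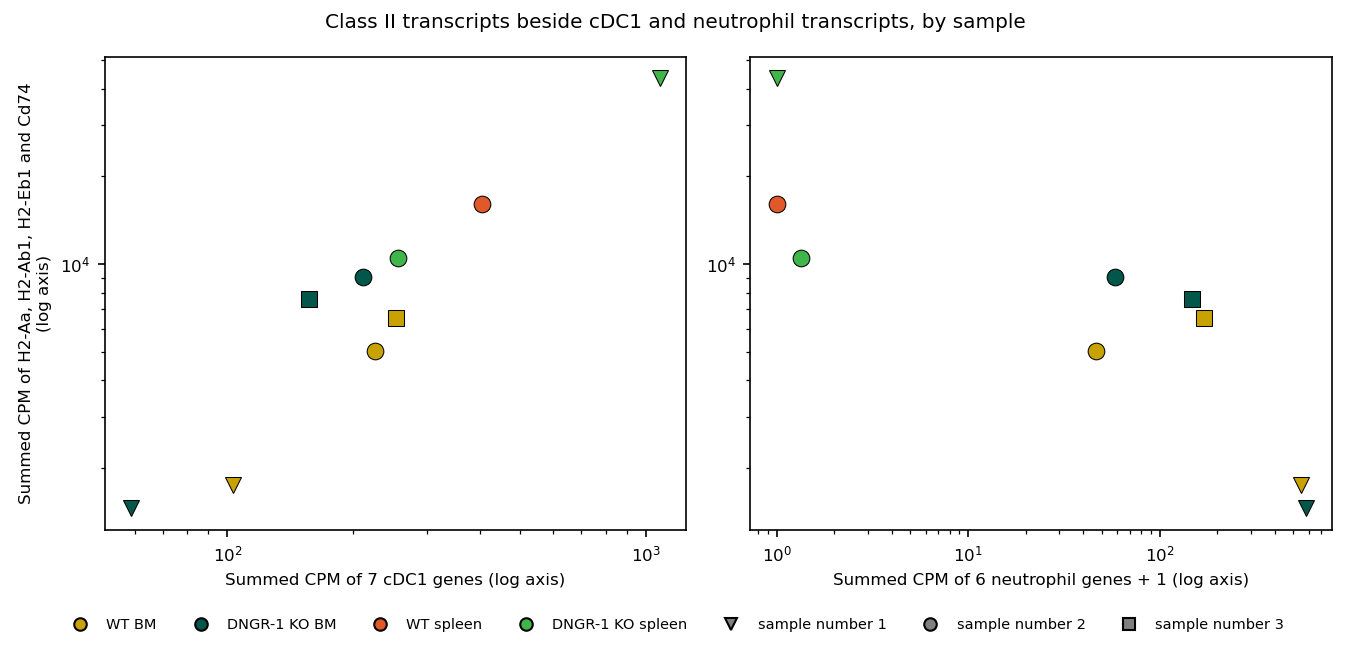
Summed CPM of H2-Aa, H2-Ab1, H2-Eb1 and Cd74 in each sample against the summed CPM of 7 cDC1 genes (left) and of 6 neutrophil genes plus 1 (right), all on log axes. BM samples numbered 1 have the lowest class II and cDC1 sums and the highest neutrophil sums, at 545 and 577 CPM, and DNGR-1 KO spleen sample 1 has the highest class II and cDC1 sums.

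The classical chains and Cd74 formed one tight group. After each tissue's mean was subtracted, their log2 CPM correlated with the mean of H2-Aa, H2-Ab1, H2-Eb1 and Cd74, which they make up, at r of 0.994 to 0.9996 over the 9 samples. The other members followed less closely, with r of 0.85 for Ciita, 0.81 for H2-DMb1, 0.78 for H2-Ob, 0.72 for H2-Oa, 0.67 for H2-DMb2 and 0.61 for H2-DMa. Of 8656 other genes 37 were closer to that mean than Ciita and 423 were closer than H2-DMa. The H2-DM and H2-O chains did not pair off by complex alone. H2-DMa and H2-DMb1, partners in H2-DM, had r = 0.92, but H2-Oa was closer to H2-DMb2 (r = 0.99) than to its partner H2-Ob (r = 0.48).

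The 10 other genes most like the class II mean were Tlr3 (r = 0.99), Ppm1m, Phf11a, Id2, Xcr1, Ckb, Tlr11, Gpr141b, Gcsam and Batf3 (r = 0.95). Tlr3, Xcr1, Gpr141b and Batf3 are on the list of cDC1 genes used above, and Id2 is on that of the cDC lineage. All of these correlations are descriptions over the same 9 libraries, including those that stood apart in cDC1 and neutrophil genes.

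Among 12 transcription factors of class II promoters and of Ciita, 0 of 11 tested differed between genotypes in BM by edgeR's test, also at an unadjusted p of 0.05. Between tissues 3 rose and 3 fell in spleen. Irf1, an interferon-responsive activator of Ciita, rose by a log2 fold change of 1.47 ± 0.27 (edgeR, adjusted p = 0.00649). Irf4 rose by 2.73 ± 0.48 (edgeR, adjusted p = 0.00509), and Irf8, a defining factor of the cDC1 lineage, fell by 1.36 on the log2 scale, with an SE of 0.32 (edgeR, adjusted p = 0.0204). Prdm1, which encodes a repressor of Ciita, was also called higher (edgeR, adjusted p = 0.0165), but its counts were 0 to 7 in BM and 6 in WT spleen and 16 and 368 in DNGR-1 KO spleen.

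The other 2 that fell are subunits of the RFX complex. Rfx5 had 63, 88 and 72 counts in WT BM and 69, 219 and 194 in DNGR-1 KO BM, and 0 in all 3 spleen samples, in which H2-Ab1 was at 2173 to 10359 CPM. Its mean BM level was 33.4-fold higher than 3 counts per library would give in spleen (edgeR, adjusted p = 0.00216). That level was taken at 0.178 CPM, the highest of the 3 samples. Rfxap had 12 to 39 counts in BM and 0 in all 3 spleen samples (edgeR, adjusted p = 0.00997). Its mean BM level was 7.71-fold above that of 3 counts in spleen. Such a pattern was not particular to these genes: of 11291 genes with at least 10 counts in all 6 BM samples, 431 (3.82%) had at most 3 in every spleen sample. Spleen libraries held fewer genes above 3 counts, 10813 to 12135 against 13577 to 15052 in BM. Il12b had 398 counts in WT spleen, and 0 and 477 in DNGR-1 KO spleen samples 1 and 2. A count of 0 in a spleen library therefore sets no firm bound on a level. Rfxank, the remaining RFX subunit, was at 19.4 to 29.4 CPM in BM and 31.9 to 50.4 CPM in spleen (edgeR, adjusted p = 0.184).

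Of 9 endosomal proteases and processing genes, 0 differed between genotypes in BM by edgeR's test, also at an unadjusted p of 0.05, and 1 rose in spleen. Ctss, which cleaves the invariant chain, was at 652 to 1164 CPM in BM and 1646 to 2967 CPM in spleen, a log2 fold change of 1.34 ± 0.26 (edgeR, adjusted p = 0.00904). Of 3 genes of surface class II turnover, 0 were called between genotypes in BM by edgeR, with 1, March8, at an unadjusted p of 0.05. Between tissues Cd83, which protects surface class II from ubiquitin-driven loss, had 10 to 241 counts in BM, 1126 in WT spleen and 1847 and 451 in DNGR-1 KO spleen, with a log2 fold change of 3.56 ± 0.76 (edgeR, adjusted p = 0.0126). March8, a ubiquitin ligase, had 24 to 318 counts in BM and 0 in all 3 spleen samples (edgeR, adjusted p = 0.00377). Its mean BM level was 43.1-fold above that of 3 counts in spleen, which is not a firm bound, as for Rfx5 and Rfxap. March8 was thus among the 3.82% of genes with at least 10 counts in all 6 BM samples and at most 3 in every spleen sample. March1, the ligase best known for class II in DCs, was at 38.5 to 181 CPM in BM and 49.8 to 265 CPM in spleen (edgeR, adjusted p = 0.463).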

How the data were processed

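The deposited tables hold expected counts, as estimated by the authors for each gene without normalization, and log2-scale values after the variance stabilizing transformation (VST) of DESeq. The submitters' processing notes name Trimmomatic 0.36, STAR 2.5.2, RSEM 1.3.0, DESeq2 1.18.1 and R 3.4.3 with GRCm38. Of the nonzero counts 25.6% were not whole, and counts were rounded, whereas the tests had been planned for raw counts. Samples were grouped by their labels. The label fields of WT samples disagree on CD45.1 or CD45.2, and CD45.1 was taken from the study's text. Symbols, exon lengths and coordinates came from GENCODE M21.

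Tests used R 4.3.3 and edgeR 4.0.16 (TMM, filterByExpr with a minimum count of 10, quasi-likelihood test, Benjamini-Hochberg adjustment over all genes tested, threshold 0.05). The BM comparison used 6 samples, the tissue comparison 9 with genotype as a covariate, and the interaction 9 with a mean per group. The standard error was taken from the F statistic. CPM were TMM-scaled, and log2 CPM had a prior count of 2. Correlations used genes with a mean of at least 10 CPM. A depth of 17103806 to 23722298 counts per sample puts 3 counts at 0.127 to 0.179 CPM. The labels do not say whether samples of a group came from separate transplants, so p-values measure the spread between these pools. Chi-square values per gene between replicates, 28.9 to 257, were far above sampling noise. Scripts were tested on simulated counts. Alternatives were DESeq2 1.42.0, limma 3.58.1 (voom, and on VST values), other scalings and filters, the replicate number as a block, the chromosome 1 congenic score as a covariate or its interval left out, other sample sets, and each sample left out. The genes named are the 10 members, Clec9a, 4 pathway lists, 11 marker lists and the 10 genes most like the class II mean. Members and lists were chosen with earlier results of these data known.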

Additional observations from a re-analysis of the deposited data

How the results depend on the processing

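In BM 0 members were called under all 18 alternatives, and in the interaction under all 11. The BM count over all genes, 4, was 11 with DESeq2, 10 without a filter, 1 without the congenic interval, 8 without both samples numbered 1, and 2 to 15 leaving out 1 sample. In BM, Cd74 turned to -0.018 without WT BM sample 1 and to -0.11 without DNGR-1 KO BM sample 2, where Ciita was -0.032. Their highest values leaving out 1 sample were 0.81 for Cd74 and 0.96 for Ciita.

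The tissue count, 2479, was 4094 with DESeq2, 1336 in DNGR-1 KO samples alone, 1063 without both BM samples numbered 1, and 1584 to 3118 leaving out 1 sample. The stricter filter of 10 counts in every sample changed the share of higher calls from 38.1% to 55.4%, with 1762 calls. Of the members 4 were called, 6 with DESeq2 and 3 with limma on VST values, 1 in DNGR-1 KO samples alone, 0 without both BM samples numbered 1, and 0 to 7 leaving out 1 sample. Adjusted p-values over the alternatives were 0.00160 to 0.145 for H2-Eb1, 0.00235 to 0.144 for Cd74, 0.00106 to 0.142 for H2-Oa and 0.00441 to 0.0975 for H2-Ob. H2-DMa turned to -0.063 without the WT spleen sample and to -0.064 in DNGR-1 KO samples alone, and was at most 0.39 leaving out 1 sample. H2-Aa, H2-Ab1 and H2-DMb2 were called under 6, 3 and 1 of the 21 alternatives.

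Cells of both genotypes came from mixed chimeras, so pools of the genotypes probably shared recipients. By the total of mice given in the study, pools of BM and spleen probably did so as well. Whether the replicate number marks a shared pool is not given in the sources used here, and fits without it as a block took all samples as independent. Between the genotypes, BM samples with one number had deviations from their group means that correlated at 0.0899, 0.0735 and -0.0603 over all genes. Over the members these values were 0.680, 0.887 and 0.392. Samples with unlike numbers gave -0.187 to 0.132 over all genes and -0.754 to 0.478 over the members. WT sample 3 with DNGR-1 KO sample 2 had both upper values, so the pairing is unsettled. For the numbers as a block the counts were 4 in BM, 1004 between tissues with 1 member called, and 596 in the interaction. With this block the interaction value of H2-Oa was -0.012.

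The interaction count, 1108, was 2233 with DESeq2 and 767 to 2677 leaving out 1 sample. Interaction values turned negative without WT BM sample 3 (H2-Aa -0.083, H2-Ab1 -0.077, H2-Eb1 -0.059, Cd74 -0.10, H2-Ob -0.016), without DNGR-1 KO BM sample 1 (H2-Aa -0.21, H2-Ab1 -0.11, H2-Eb1 -0.12, Cd74 -0.17) and without DNGR-1 KO spleen sample 1 (H2-Aa -1.18, H2-Ab1 -1.16, H2-Eb1 -1.12, Cd74 -0.95, Ciita -0.012, H2-DMb2 -1.22, H2-Oa -1.76). The highest values leaving out 1 sample were 0.96, 1.10, 1.09, 0.93, 2.40, 1.84, 1.72 and 1.22 for H2-Aa, H2-Ab1, H2-Eb1, Cd74, Ciita, H2-DMb2, H2-Oa and H2-Ob. In spleen the median of the mean log2 difference of the members, 0.42, was 0.37 to 0.44 with other scalings, another prior count or VST values, and -0.70 or 1.67 with 1 DNGR-1 KO sample alone. The causes of these changes were not tested beyond the smaller sets of samples or genes. The leaving out of both samples numbered 1 and a filter by the design matrix, with 2710 tissue calls, were chosen after seeing the data. A single WT spleen sample limits every statement on spleen genotype.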
